A study of Mus musculus with 3 samples.

Results

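The Bcl11a locus was described here as the RefSeq span of Bcl11a on mouse chromosome 11 (24076564 to 24173558, 96995 bp, build GRCm38, the same as mm10) plus 100 kb on each side, 23976564 to 24273558. Its members were all PU.1 peaks that touched this window by at least 1 bp. They numbered 29 of the 74494 peaks of PU.1 replicate 2, 3 of the 6169 peaks of PU.1 replicate 3 and 21 of the 49385 intervals of the merged list. The locus was picked because it holds a region with a score of 3100 in both replicates, so its scores and counts are given as a description, without a test.

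Both PU.1 libraries (PU.1_2 and PU.1_3 in the figures, for replicates 2 and 3) came from i660BM, a line of C57BL/6 mouse pro-B cells that carries a PU.1-inducible system, after 24 h with 70 ng/ml doxycycline, and were made with a rabbit polyclonal antibody against PU.1. The input sample was chromatin without antibody, and no file of it was analysed here. All chromatin compared here was induced, from 1 cell line, and the labels do not say whether the replicates were separate cultures, so binding that depends on induction cannot be told apart from binding that does not. ChIP-seq reports no RNA, so the pro-B identity of the cells was not checked against marker genes.

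Bcl11a encodes a zinc-finger transcription factor, also called Ctip1 or Evi9, that acts mostly as a repressor together with the NuRD chromatin-remodelling complex. In mice it is needed for early B lymphocyte development, and in red cells it silences the embryonic and fetal globin genes. The human gene has an erythroid enhancer in an intron, the target of genome editing in sickle cell disease. PU.1, the product of Spi1, is an ETS-family factor of B cells and myeloid cells that binds DNA with a GGAA core, often preceded by further purines.

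Replicate 3 had no peak on Bcl11a itself: all 3 of its peaks lay beyond the 3' end of the gene. The peak next to the gene was at 24174019 to 24176248, 0.46 kb beyond the span, with a score of 3100. The second was at 24184584 to 24185712, 11.03 kb beyond the span, with a score of 955. The last was at 24258058 to 24259043, 84.5 kb beyond the span and overlapping the non-coding RNA gene Gm33440, with a score of 259.6. The score is the peak caller's own value, read as minus 10 times the log10 of the p-value, and it can be ranked only within its own list. The replicate 3 peaks held rank 1 (shared by the 11 peaks at 3100), rank 106 and rank 1273 of 6169 in their list. The list had a median score of 135.8, and all 3 peaks lay above it.

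Each of these 3 peaks met a replicate 2 peak with a score of 3100, and no other replicate 2 peak in the window reached that score. The replicate 2 peaks were at 24173911 to 24176460, 24184479 to 24185684 and 24257427 to 24259104. The first and the last contained the whole of their replicate 3 peak (2230 and 986 bp), and the second shared 1101 of 1129 bp with it. The centre of the replicate 3 peak was offset from that of the replicate 2 peak by -52, 66.5 and 285 bp along the chromosome. Both replicates therefore placed the sites nearest the gene within 100 bp of each other, and the one over Gm33440 less closely, inside a replicate 2 peak 1678 bp wide. The 3 pairs formed the 3 shared regions of the locus. Across the genome 97.1% of the 2656 replicate 2 peaks at or above 3100 met a replicate 3 peak, so the pairing of the 3 peaks is the usual one for that score.

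**Figure D1:**
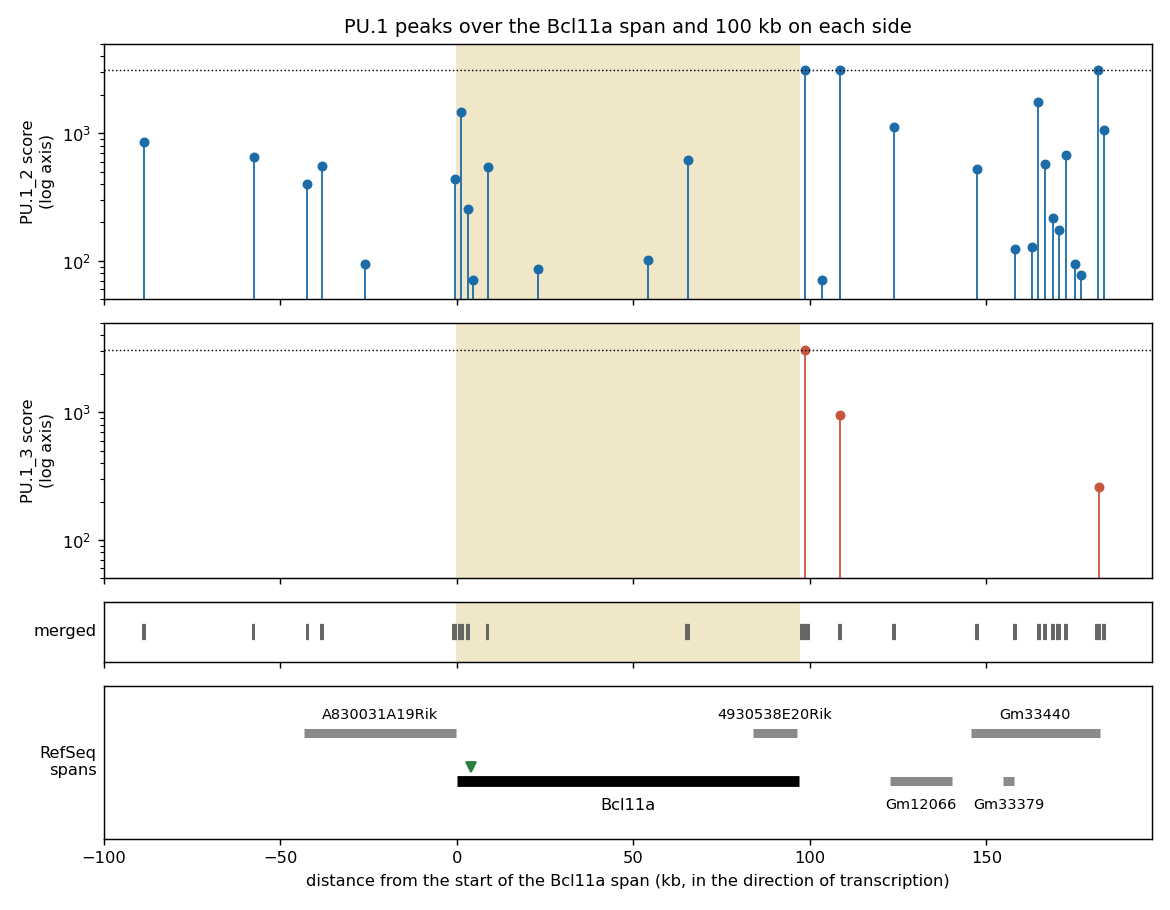
PU.1 peaks over Bcl11a and 100 kb on each side. Points give the score of each peak (log axis, dotted line at 3100) against the distance of its centre from the start of the Bcl11a span in kb; the merged list is drawn as bars, RefSeq spans are below, the shaded block is Bcl11a, and the green triangle is the start site of the RefSeq promoter table. The 29 replicate 2 peaks run through the window, and the 3 replicate 3 peaks all stand beyond the gene.

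The region beside the gene end was wide as well as high in score. Its replicate 2 peak of 2550 bp was the 724th widest of 74494, against a median of 995 bp in that list. Its replicate 3 peak of 2230 bp was the 9th widest of 6169, against a median of 977 bp. Across the genome 11 shared regions had scores of at least 3100 in both replicates, and the Bcl11a region was the widest of them, against 1320 to 2493 bp for the others. It also had the most company, with 24 further replicate 2 peaks within 100 kb, against 2 to 17 at the other regions. It had 2 further shared regions within 100 kb, against 0 to 2 at the others. Just below the 3100 threshold, the next replicate 3 peak in the genome had a score of 3057, and the next replicate 2 peak 3099.6. A score of exactly 3100 was held by 2431 replicate 2 peaks. By printed value they share rank 226, because other peaks of that list had values up to 3233. Whether values above 3100 mark stronger peaks was not tested, so this rank orders printed values only. Of the peaks at exactly 3100, 97.5% met a replicate 3 peak, against 97.1% of the 2656 at or above 3100. Order among the peaks at exactly 3100 is not resolved. Of all protein-coding genes, 0.146% (32 of 21883) had such a region within their span plus 100 kb, and the rule used this property to pick Bcl11a.

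The remaining 26 replicate 2 peaks of the window, scored under 3100, met no replicate 3 peak. Genome-wide, 4.96% of replicate 2 peaks under 3100 did. Overall 3 of the 29 replicate 2 peaks had a replicate 3 partner (10.3%, exact Clopper-Pearson 95% interval 2.19 to 27.4), close to the genome-wide 8.24%. The pair at 3100 in both replicates was given by the rule that picked the locus, so this share is a description and no test. The 4 peaks between 1000 and 3100 had scores of 1749, 1476, 1126 and 1052, and none had a partner. Of all replicate 2 peaks scored from 1000 to under 2000, 17.5% had one. Whether replicate 3 lacked these sites or the shorter list missed them was not tested.

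**Figure D2:**
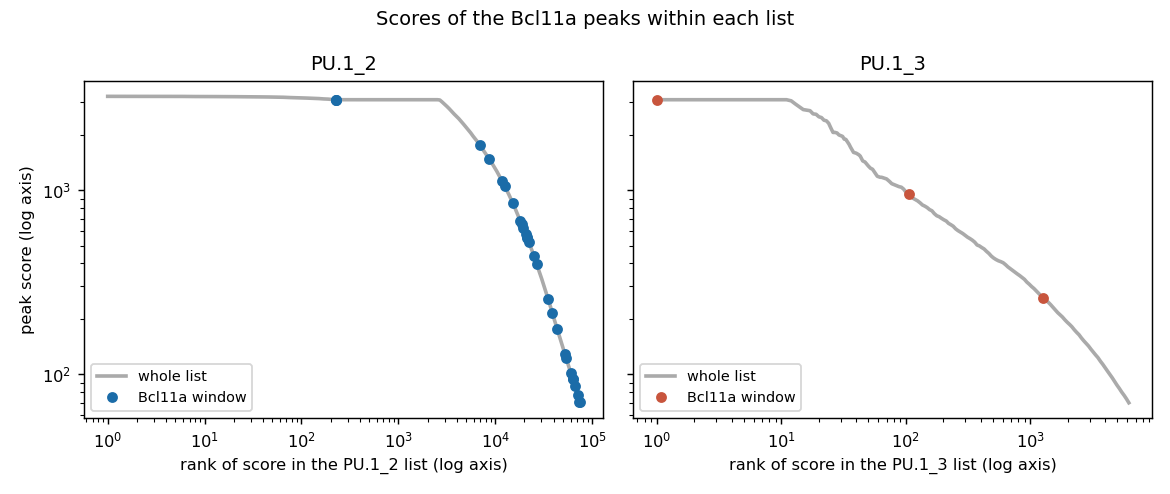
Score of each peak of the Bcl11a window (coloured points) on the ranked scores of the whole list (grey line), for replicate 2 on the left and replicate 3 on the right, both axes logarithmic. The 3 replicate 2 peaks at 3100 fall on 1 point because they share a rank, and the other 26 spread down to the lowest scores, whereas the replicate 3 peaks hold ranks 1, 106 and 1273.

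Replicate 2 scores in the window ran from 70.7 to 3100 with a median of 522, against a median of 231.8 in the whole list. Of the 29 peaks, 18 lay above that whole-list median (62.1%, exact 95% interval 42.3 to 79.3), against the 50% that the median leaves by definition. The peak for which the locus was picked is among the 18, and all 29 come from 1 library. The share and its interval are therefore a description and no test. Peak widths ran from 697 to 2550 bp with a median of 1062 bp, against 995 bp in the whole list. The peaks covered 11.6% of the window. The replicate 3 peaks covered 1.46%.

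By position, replicate 2 had 5 peaks before the span, 1 across its 5' end, 7 inside it and 16 beyond its 3' end. Scores had medians of 556 before the span, 256 inside it and 549 beyond it. Counted by centre, this was 16 peaks per 100 kb beyond the gene, 7.22 inside it and 6 before it. All 3 stretches exceeded 2.80 per 100 kb, the density of the replicate 2 list over the genome. Replicate 3 had 3 peaks per 100 kb beyond the gene and 0 in the other stretches, against 0.240 per 100 kb over the genome. The merged list had 12, 4.12 and 5 intervals per 100 kb beyond, inside and before the gene, against 1.86 per 100 kb over the genome.

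At the 5' end of Bcl11a, 5 replicate 2 peaks had centres from -0.6 to 8.73 kb relative to the start of the span. The peak across the start (24075313 to 24076624) scored 436 and also touched A830031A19Rik, a non-coding RNA gene that ends 0.07 kb before Bcl11a. It was followed by the strongest peak inside the gene, at 24076956 to 24078613 with a score of 1476. Peaks at 24079134 to 24080212 and at 24080791 to 24081742 scored 256 and 70.7, and a peak at 24084764 to 24085817 scored 548. The group thus combined 1 strong peak with weaker ones, and replicate 3 had none there.

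The start site in the RefSeq promoter table lies at 24080695, inside the span and between the peaks scored 256 and 70.7. Its promoter window, 250 bases before to 50 after that site, was not overlapped by a peak of either replicate. The gap to the lower peak was 232 bp and that to the upper one 46 bp. In contrast, both upstream neighbours, Papolg, a poly(A) polymerase gene, and Rel, which encodes an NF-kB subunit, had a peak of each replicate over their promoter window. The Papolg promoter lay under peaks scored 3100 in replicate 2 and 193.8 in replicate 3, and the Rel promoter under peaks scored 3178 and 113. Of all 32851 promoter windows, 27.5% were overlapped in replicate 2 and 2.23% in replicate 3, so an uncovered window is the common case. The promoter windows are shown to set the uncovered one of Bcl11a beside the covered ones of its neighbours. The start of the Bcl11a span itself, 24076564, lies under the replicate 2 peak scored 436. Sequences are from RefSeq, GRCm38.p6, each 5' to 3' on the strand of its gene. Capitals mark GAGGAA, a purine-rich PU.1 core, and GGAA, on either strand.
Bcl11a, chr11:24080445-24080744, + strand: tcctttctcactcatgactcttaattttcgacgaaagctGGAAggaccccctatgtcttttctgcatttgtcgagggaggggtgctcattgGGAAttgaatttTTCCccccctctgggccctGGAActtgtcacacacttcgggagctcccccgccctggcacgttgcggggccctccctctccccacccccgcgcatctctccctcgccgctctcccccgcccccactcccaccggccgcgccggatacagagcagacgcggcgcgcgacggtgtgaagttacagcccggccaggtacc
Papolg, chr11:23895221-23895520, - strand: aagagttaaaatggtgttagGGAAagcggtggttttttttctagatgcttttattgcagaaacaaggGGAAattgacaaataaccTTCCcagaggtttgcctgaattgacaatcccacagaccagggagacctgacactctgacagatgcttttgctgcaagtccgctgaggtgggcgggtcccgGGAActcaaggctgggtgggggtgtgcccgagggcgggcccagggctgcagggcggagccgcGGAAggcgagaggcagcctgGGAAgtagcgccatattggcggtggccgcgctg
Rel, chr11:23770920-23771219, - strand: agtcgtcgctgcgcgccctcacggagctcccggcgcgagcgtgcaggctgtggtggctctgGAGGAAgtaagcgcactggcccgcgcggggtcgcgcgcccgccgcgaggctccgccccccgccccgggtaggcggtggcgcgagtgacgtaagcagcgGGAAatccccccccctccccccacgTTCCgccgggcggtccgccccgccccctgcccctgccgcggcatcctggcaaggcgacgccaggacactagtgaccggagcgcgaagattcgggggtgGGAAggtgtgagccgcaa
GGAA occurred 4 times in the Bcl11a promoter window, 6 times in that of Papolg and 4 times in that of Rel, counting both strands. GAGGAA, which contains GGAA, occurred once in Rel, in the other two not at all. Of all promoter windows, 96% held GGAA and 28.3% held GAGGAA. The longer motif was held by 32% of the 9024 windows under a replicate 2 peak and by 49.2% of the 732 under a replicate 3 peak. A match of letters is not a bound site. No peak lies over the Bcl11a promoter window, and the sequence of the peaks of its locus was not used here.

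Further inside the gene the peaks were sparse. Centres at 22.88, 54.06 and 65.42 kb from the start of the span belonged to peaks scored 86.4, 101 and 619. The last of these, at 24141201 to 24142761, was followed by 31.1 kb without a replicate 2 peak, the longest gap in the window. That gap holds 4930538E20Rik, a long non-coding RNA gene within the Bcl11a span, and ends at the region scored 3100 in both replicates. Exons and introns were not separated, because the gene table used gives spans only.

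Before the gene, replicate 2 had peaks scored 849.6, 654, 399, 556 and 94.1, which ended 88.09, 57.04, 41.94, 37.74 and 25.58 kb ahead of the span. The last 3 of these overlapped A830031A19Rik. None reached 1000, and replicate 3 had no peak on that side until the Papolg promoter, 180.89 kb away.

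Beyond the gene, the strongest replicate 2 peaks after the 3 at 3100 were at 24240736 to 24241838 with a score of 1749, at 24199688 to 24201044 with 1126 and at 24259303 to 24260410 with 1052. The second of these overlapped Gm12066 and the first Gm33440, both long non-coding RNA genes. Gm33440 carried 11 replicate 2 peaks on its span and was the only one of the 5 non-coding genes of the window with a replicate 3 peak. A830031A19Rik carried 4, Gm12066 and Gm33379 carried 1 each, and 4930538E20Rik carried 0. No promoter window of Gm12066, Gm33440, Gm33379 or 4930538E20Rik was overlapped by a peak. Of all promoter windows, 27.5% were overlapped in replicate 2 and 2.23% in replicate 3. For A830031A19Rik no promoter window was read.

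The replicate 2 peaks over Gm33440 were crowded. Within 20 kb, from 24234162 to 24253612, there were 9 peaks, which together covered 9.54 kb. Their scores ran from 76.9 to 1749, and the stretch lay 60.6 to 80.1 kb beyond the Bcl11a span. Shifting the stretch to start at 24240736 and end at 24260410 also gave 9 peaks and took in the one scored 3100. Across the genome 4 replicate 2 peaks (0.00537%) started a 20 kb stretch with at least 9 peaks, both of these among them, and the others were on Dyrk3 (chromosome 1) and Tg (chromosome 15). This stretch and its length were chosen after the values were seen. With 10 kb, the fullest stretch held 5 peaks, a number reached from 95 starts across the genome. With 30 kb it held 11, a number reached from 5 starts. Replicate 3 had 1 peak in this part of the locus.

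**Figure D3:**
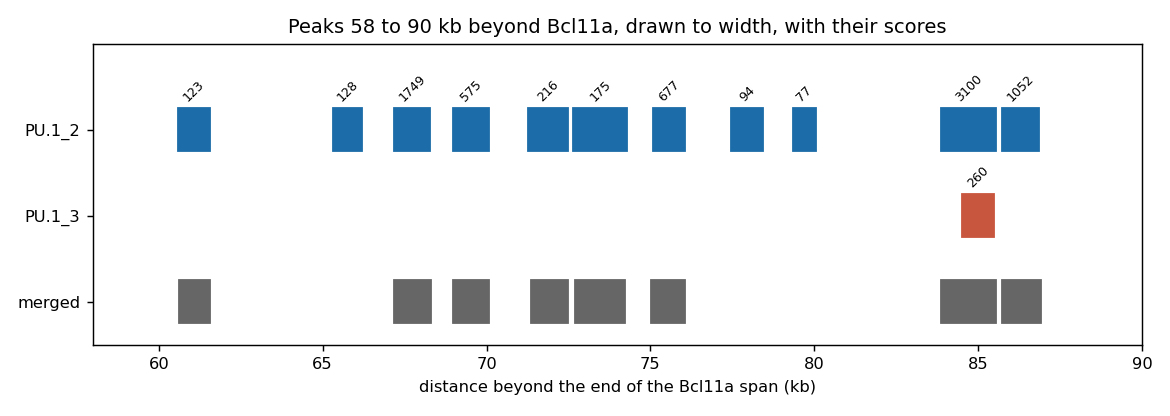
Peaks 58 to 90 kb beyond the Bcl11a span, drawn to their width along the axis (kb beyond the end of the span), with scores above the bars of both replicates; the merged list has no scores. Replicate 2 has 11 peaks here, replicate 3 has 1 and the merged list has 8, the peaks without a merged interval scoring 128, 94.2 and 76.9.

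The 21 merged intervals of the window each held 1 replicate 2 peak, and 3 of them also a replicate 3 peak. Of the 29 replicate 2 peaks, 21 met a merged interval (72.4%, exact 95% interval 52.8 to 87.3), against 66.5% genome-wide. The 29 peaks come from 1 library at a locus picked by score, so this share and its interval are a description and no test. The 8 left out scored 70.7 to 128, and those inside 123 to 3100, so the 2 sets overlapped by 1 peak inside the list, scored 123. Both ends of 1 interval equalled those of a replicate 2 peak, and of none those of a replicate 3 peak. The intervals for the 3 shared regions ran from 24173898 to 24176492, 24184505 to 24185740 and 24257420 to 24259104.

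Against other genes, the Bcl11a window held more peaks of each replicate than the median gene. It held 29 replicate 2 peaks, against a median of 10 over the same windows of 21883 protein-coding genes, and 1.1% of genes had at least 29. It held 3 replicate 3 peaks, against a median of 1, and 12.1% of genes had at least 3. It held 3 shared regions, and 11.9% of genes had at least 3. At least 1 shared region was found at 52.4% of genes and at least 1 merged interval at 91.9%. For merged intervals Bcl11a had 21, against a median of 7, and 2.61% of genes had at least 21. In 9091 consecutive genome bins of the length of this window, which takes away the effect of gene length, 1.33% had at least 29 replicate 2 peaks, 7.79% at least 3 replicate 3 peaks, 7.68% at least 3 shared regions and 2.36% at least 21 merged intervals. These shares describe the lists and are no test, since the locus was chosen from them. With 200 kb on each side, 38 replicate 2 peaks and 6 replicate 3 peaks were counted, and 5.33% and 4.5% of genes had at least as many, so which replicate gives the smaller share depends on the flank.

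**Figure D4:**
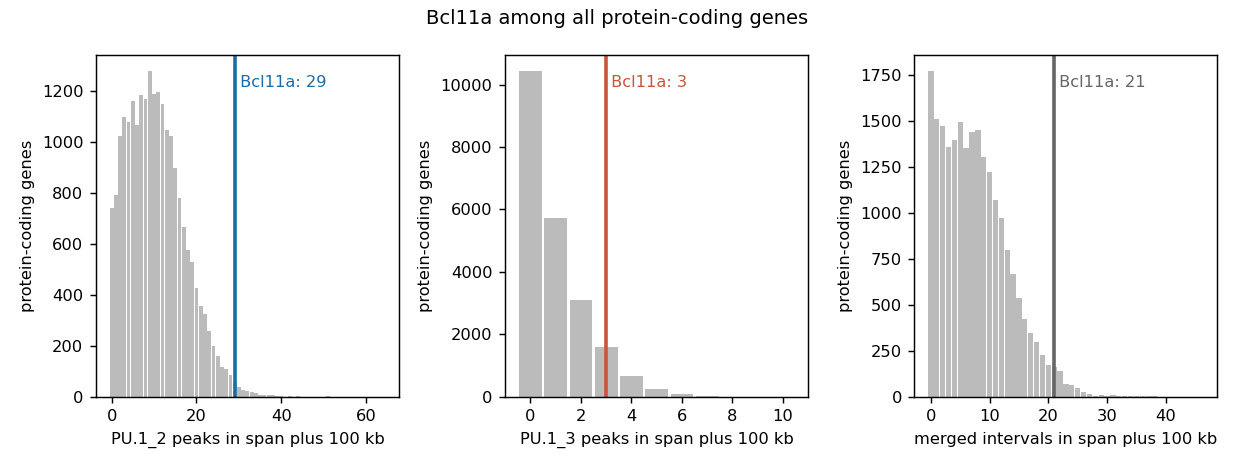
Number of protein-coding genes (vertical axis) by the number of replicate 2 peaks, replicate 3 peaks and merged intervals in their span plus 100 kb (horizontal axes), with Bcl11a as a coloured line. Bcl11a stands at 29, 3 and 21, against medians of 10, 1 and 7.

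The genes most like Bcl11a were sought by the distance between log2(1 + n) of their counts of replicate 2 peaks, replicate 3 peaks and merged intervals, 3 counts per gene. Genes whose window overlapped that of Bcl11a or of a gene already named were skipped. Herc1, a ubiquitin ligase gene, and S1pr5, which encodes a sphingosine-1-phosphate receptor, had the same counts of 29, 3 and 21. Umodl1 (30, 3 and 21), Cecr2, a chromatin-remodelling gene (28, 3 and 21), and Dnajc7, a co-chaperone gene (28, 3 and 21), came next, at distances of 0.047 to 0.049. Their highest replicate 3 scores were 143 for Herc1, 375 for S1pr5, 1443 for Umodl1, 3100 for Cecr2 and 101 for Dnajc7. Cecr2 also holds a region at 3100 in both replicates, the property for which Bcl11a was picked. Genes alike in counts thus ranged over most of the replicate 3 score scale.

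Bcl11b, the paralog known for its role in T cells, gave other values. Its span plus 100 kb on chromosome 12 held 5 replicate 2 peaks with a highest score of 929, 4 merged intervals and no replicate 3 peak. Bcl11a had 29 replicate 2 peaks in a window of nearly the same length, with spans of 96995 bp for Bcl11a and 93743 bp for Bcl11b.

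Genes that work with Bcl11a or in the same lineage were read in the same windows. The gene lists were chosen with earlier results of these data known, and the shares of all genes are not matched for gene length. The shares and intervals are therefore a description and no test. Of 29 other B-lineage transcription factor genes, 26 had a replicate 3 peak (89.7%, exact 95% interval 72.6 to 97.8), against 52.3% of all protein-coding genes. All 29 had a replicate 2 peak, against 96.6%. Their median was 24 replicate 2 peaks and 3 replicate 3 peaks, against 10 and 1 over all genes. At least 29 replicate 2 peaks were found at 1.1% of all protein-coding genes and at 6 of these 29 genes. These were Foxp1 with 64, Ets1 with 39, Ebf1 and Bach2 with 38 each, Ikzf1 with 32 and Erg with 29, of which Foxp1, Bach2 and Erg were named after their values were seen. Windows grow with the gene, and the Foxp1 span is 597405 bp long. The Bcl11a replicate 3 score was used to pick the locus, so the scores of these genes are given for themselves and not set against it. The highest replicate 3 scores were 1485 at Ets1, an ETS-family gene, 1061 at Ebf1, a B-lineage specification factor, 869 at Tcf4, 575 at Runx1, 476 at Foxo1 and 409 at Ikzf1, which encodes Ikaros.

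Of 21 genes of NuRD and other co-repressors, 15 had a replicate 3 peak (71.4%, 47.8 to 88.7), against 52.3% of all protein-coding genes. No difference between the 2 shares was tested. Their median was 14 replicate 2 peaks, against 10 over all genes. The highest replicate 3 scores were 737 at Gatad2a and 542 at Gatad2b, both NuRD subunits, 603 at Chd3, a NuRD helicase, 548 at the histone deacetylase gene Hdac2, 405 at Dnmt1 and 168 at Bcl6. The list had 0 members with as many as 29 replicate 2 peaks. Over all protein-coding genes that share was 1.1%, so a count of 0 among 21 genes says little about them.

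Of 18 globin genes and erythroid regulators, 12 had a replicate 3 peak (66.7%, 41 to 86.7), against 52.3% of all protein-coding genes. The interval counts the genes as independent, which neighbouring globin genes are not, so nothing is concluded from it. Their median was 13 replicate 2 peaks, against 10 over all genes. The β-globin genes Hbb-y, Hbb-bh1, Hbb-bt and Hbb-bs, which include embryonic genes repressed by Bcl11a, lie side by side and had the same highest replicate 3 peak, scored 349. The α-globin genes Hba-x, Hba-a1 and Hba-a2 had no replicate 3 peak and a highest replicate 2 score of 1261. Among the regulators, Nfe2 had a replicate 3 score of 479, Gata1 375.5 and Klf1, an activator of Bcl11a in red cells, 357. Genes that share a peak are not independent, and Bcl6 and Myb each stand in 2 lists.

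**Figure D5:**
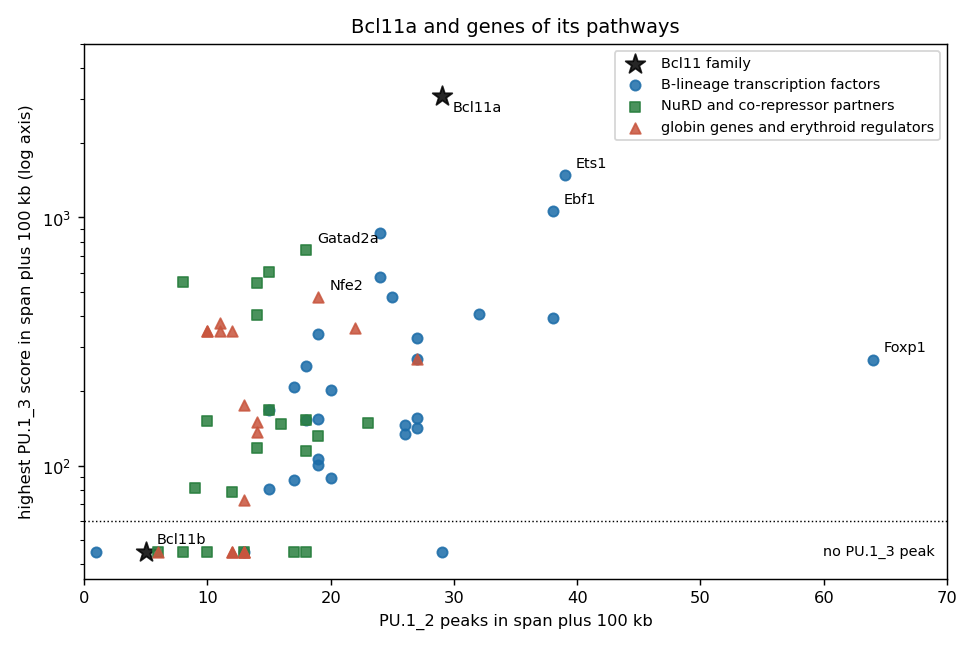
Highest replicate 3 score (log axis) against the number of replicate 2 peaks in the span plus 100 kb, 1 point per gene, with Bcl11a and Bcl11b as stars; genes without a replicate 3 peak are placed below the dotted line. Among the genes of these 4 lists Ets1 stands at 1485, and Bcl11a at 3100, the score for which the locus was picked.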

How the data were processed

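PU.1 ChIP-seq peak lists of 2 induced replicates (numbered 2 and 3 in their titles) and 1 merged list were used. Per the submitters' processing notes, Trim Galore, Bowtie and MACS 1.4.1 were used on build mm10. Peaks were called per sample, as each library has its own list, and the control for calling is not stated. The deposited score depends on depth and carries no scaling across libraries. Many peaks share a score of exactly 3100, for a reason not stated, and replicate 2 scores run up to 3233. Whether values above 3100 mark stronger peaks than 3100 was not tested. The merged list has a score of 0 throughout, and its making is not stated. Depth is unknown, so no floor was computed, and intervals cover counting error only.

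Peaks overlapping the window by 1 bp were counted, with 1-based coordinates, using Python 3.11.15, numpy 2.4.6, pandas 2.3.3 and scipy 1.17.1. Shared regions were unions of overlapping peaks holding both replicates. Counting was tested on simulated data. No comparison was tested, because both libraries are induced and the locus was picked by score. Genes came from RefSeq GRCm38.p6, as 1 span per gene. The locus and 4 gene lists (all 70 entries matched) were chosen with earlier results of these data known. Named genes were Bcl11a, genes in its window, its neighbours and the 5 most similar in counts among genes whose windows do not overlap. The top 6 per list by replicate 3 score, with ties, were also named (7 of the globin and erythroid list). Bcl11b, Myb, the α-globin genes, Dyrk3 and Tg were named after their values were seen. Alternatives were other flanks, a score of at least 100, peak centres, 50% reciprocal overlap and either replicate alone.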

Additional observations from a re-analysis of the deposited data

How the results depend on the processing

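Counting peak centres in place of any overlap left 29, 3, 3 and 21 replicate 2 peaks, replicate 3 peaks, shared regions and merged intervals, as reported. The flank and the replicate required moved the values. On the gene span alone there were 8, 0, 0 and 5, and 4.19%, 100%, 100% and 5.72% of genes had at least as many, the 100% following from a count of 0. With 50 kb on each side there were 16, 2, 2 and 11, and the shares of genes were 4.17%, 13.4%, 13.3% and 7.23%. With 200 kb there were 38, 6, 6 and 28, and the shares were 5.33%, 4.5%, 4.35% and 7.11%. With scores of at least 100, 23 replicate 2 peaks, 3 replicate 3 peaks and 3 shared regions were left, and the shares were 2.66%, 6.14% and 6.05%. A reciprocal overlap of 50% kept 3 shared regions, with a share of 9.23%. Counting peaks of either replicate alone in place of shared regions gave 3 (without replicate 2) to 29 (without replicate 3), with shares of 12.1% and 1.1%. The cause of these differences was not tested. No paired analysis was possible because both PU.1 libraries belong to 1 group. Without read depth, scores were not compared between replicates.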

Other observations

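The strong sites did not end with the window. Beyond it, Fancl, a gene of the Fanconi anaemia pathway, is the next protein-coding gene, 2214 kb from the end of Bcl11a. Over the 2113.5 kb from the window to Fancl replicate 2 had 49 peaks, or 2.32 per 100 kb, against 9.76 per 100 kb in the Bcl11a window. Of these, 2 scored 3100, at 24341909 to 24343672 and 24356887 to 24358155, which is 168.4 and 183.3 kb beyond the Bcl11a span. Both met a replicate 3 peak, with scores of 370.5 and 246. The only other replicate 3 peaks before Fancl scored 145.7 and 99.0 and lay 2039.8 and 2080.8 kb beyond the span. With the nearest protein-coding gene by peak centre as the rule in place of the window, Bcl11a had 50 replicate 2 peaks and 5 replicate 3 peaks. That rule reaches to the midpoint between Bcl11a and Fancl, so it covers far more sequence than the window. The same counts over all genes were not computed, so these 2 are not set against other genes. At the edges of the window, the nearest replicate 2 peaks outside it scored 328 on the 5' side, 104.77 kb from the span, and 134.8 on the 3' side, 102.8 kb from it. The nearest inside scored 849.6, 88.09 kb from the span, and 1052, 85.74 kb from it.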
